A study of Schizosaccharomyces pombe with 6 samples.

Results

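The sterol regulatory element-binding protein (SREBP) pathway of the fission yeast *Schizosaccharomyces pombe* was followed through 10 named genes of the 12246 protein-coding and long non-coding RNA genes in the annotation. They are the transcription factor genes sre1 and sre2, the sterol sensor gene scp1, the oxygen regulators ofd1 and nro1, the enzyme genes hmg1, erg1 and erg25, and the genes of the processing machinery dsc1 and dsc2. Membership was set by gene name and not by a threshold on measured values. For each gene, tag clusters on its strand were summed over a window that begins 500 bp before the annotated start and ends 100 bp after it, or at the start codon where that lies further. A tag cluster is a group of neighbouring capped 5′ ends, and its summit is the position with the most tags.

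The data are cap analysis of gene expression (CAGE), which counts the capped 5′ ends of RNAs and so gives both the level and the position of transcription starts. There were 3 libraries of wild-type cells (h- ade6-M210 leu1-32 ura4-D18). The other 3 libraries came from a double mutant, which is h- with the alleles fft2::kan and fft3::hph and the markers ade6M210, leu1-32 and ura4-D18. Fft2 and Fft3 are SNF2-family chromatin remodelling ATPases, and both strains carry the same ade6, leu1 and ura4 markers. Cells of both strains were grown in YES, a rich medium, at 30 °C with shaking at 180 rpm to mid-log phase, and the labels name neither low oxygen nor sterol depletion. Each genotype is 1 strain, and the labels speak of duplicate cultures but triplicate libraries, so p-values measure the spread between libraries, which may be technical. In whole cultures, a change in every cell and a change in the share of cells that express a gene cannot be told apart.

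Sre1 is made as a membrane protein held in a complex with Scp1, the sterol-sensing escort. When sterols or oxygen run short the complex moves to the Golgi, the Dsc ubiquitin ligase complex takes part in cutting Sre1, and the freed N-terminal part enters the nucleus and activates genes of sterol synthesis and growth in low oxygen, its own gene included. Sterol synthesis consumes oxygen, so sterol supply stands in for oxygen supply. Ofd1, an oxygen-dependent dioxygenase, speeds the degradation of the nuclear part, and Nro1 inhibits Ofd1.

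Library totals ran from 12681906 to 23242895 tags. The deleted genes checked the labels: clusters in the fft2 coding part summed to 5.11 ± 1.02 TPM (tags in each 1000000 of the library; mean ± SD, n = 3) in wild type and 0.12 ± 0.0460 TPM in the mutant, and those of fft3 to 2.56 ± 0.952 and 0.414 ± 0.177 TPM. Wild-type replicate 2 stood apart in genes of nitrogen starvation and mating. The promoter sum of mei2, a meiotic regulator, was 7.42, 189.9 and 9.61 TPM in wild-type replicates 1 to 3 and 34.2, 57.0 and 68.7 TPM in the mutant. Wild-type replicate 2 was also the highest library for isp5 (85.1 TPM) and mfm1 (93.8 TPM). Results on the 10 genes are therefore also given without wild-type replicate 2 where its absence changed a call. A further gene checked, fbp1, did not set that library apart but separated the strains. It had 0.239 ± 0.0823 TPM in wild type and 12.1 ± 1.87 TPM in the mutant (mean ± SD, n = 3), with no overlap. The mutant was 50.5-fold higher, and the cause was not tested.

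Sequences are shown first for the start sites on which the results turn, since these are the sites whose use differed between the strains or, for the main scp1 site, the site beside one that did. Each runs from 60 bases upstream of the initiating base to 10 bases downstream, 5′ to 3′ on the strand of transcription, from the RefSeq genome ASM294v3, with the initiating base and the base before it in capitals. The initiating base was taken 1 bp upstream of the summit. A pyrimidine followed by a purine at this place is the usual initiator.
sre1 main start, II:1691334-1691404, plus strand: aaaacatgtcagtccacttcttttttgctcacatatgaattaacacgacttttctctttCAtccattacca
scp1 main start, II:4014874-4014944, minus strand: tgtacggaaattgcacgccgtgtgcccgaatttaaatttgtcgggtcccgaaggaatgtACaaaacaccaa
scp1 upstream start, II:4014988-4015058, minus strand: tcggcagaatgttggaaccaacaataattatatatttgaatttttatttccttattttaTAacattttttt
erg1 main start, II:892100-892170, plus strand: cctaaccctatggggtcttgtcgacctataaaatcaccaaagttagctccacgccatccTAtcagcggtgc
dsc1 main start, II:655348-655418, minus strand: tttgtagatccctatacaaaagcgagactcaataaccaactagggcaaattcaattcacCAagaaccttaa
sre1 first inside start, II:1692697-1692767, plus strand: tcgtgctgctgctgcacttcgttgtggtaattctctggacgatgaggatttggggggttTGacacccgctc
sre1 second inside start, II:1692950-1693020, plus strand: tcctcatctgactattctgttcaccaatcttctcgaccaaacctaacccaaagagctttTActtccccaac
scp1 antisense start, II:4013028-4013098, plus strand: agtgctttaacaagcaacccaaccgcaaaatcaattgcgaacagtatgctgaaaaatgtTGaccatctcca
Of the main starts printed, those of sre1, erg1 and dsc1 had a pyrimidine-purine step and that of scp1 had AC. The scp1 summit itself, II:4014883, is the A after this C, so 1 base downstream the letters are CA, which is such a step.

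In wild-type cells the 10 promoters covered a wide range of use. CAGE tags mark capped 5′ ends and not positions along the RNA, so the TPM of different genes can be set side by side without a length correction. The highest was nro1 with 813 ± 87.5 TPM, rank 190 of 5113 protein-coding genes, then erg25 with 387 ± 69.1 TPM (rank 341) and ofd1 with 311 ± 28.1 TPM (rank 408). The libraries of erg25 and ofd1 overlapped, so these neighbours in the order did not separate. Next came hmg1 with 86.0 ± 14.2 TPM (rank 1147), while erg1 with 47.4 ± 4.56 TPM and dsc1 with 45.8 ± 3.03 TPM overlapped each other. The transcription factor genes and their escort were among the less used: sre1 had 30.0 ± 2.54 TPM (rank 2287), scp1 21.4 ± 2.42 TPM, sre2 17.5 ± 3.42 TPM and dsc2 15.3 ± 0.723 TPM (rank 3125). The ranges of scp1 and sre2 overlapped, and so did those of sre2 and dsc2.

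**Figure D1:**
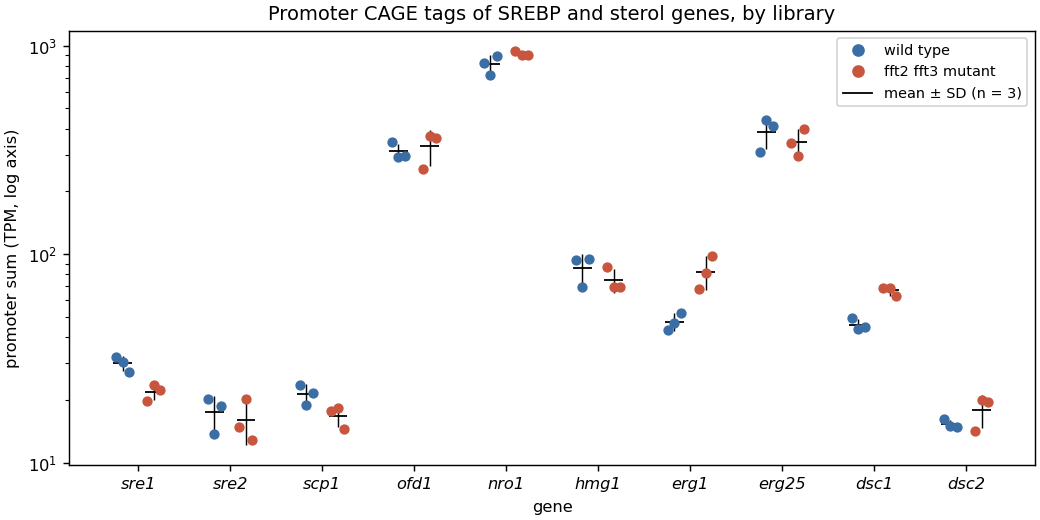
Promoter sums of the 10 genes in TPM (log axis), 1 point per library, with the mean ± SD of the 3 wild-type and the 3 double-mutant libraries. The mutant points of erg1, dsc1 and nro1 all lie above the wild-type points, and those of sre1 and scp1 all lie below them.

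The genes also differed in how far transcription starts from the start codon. The annotated 5′ leader was 1171 bp in sre2, 771 bp in hmg1, 519 bp in erg1, 434 bp in sre1, 355 bp in erg25 and 109 bp in scp1. It was 44 bp in ofd1, 37 bp in nro1 and 20 bp in dsc2, and in dsc1 the annotated start is the start codon itself. The main dsc1 cluster had its summit at position -111 relative to that codon, and the main ofd1 summit lay at -33 relative to the annotated start. In the other 8 genes the main summit lay 1 or 3 bp downstream of the annotated start. These are summit positions. The initiating base was taken 1 bp upstream of the summit, so in sre1, scp1 and erg1 it is the annotated start itself. Widths of the main clusters ran from 4 bp in dsc1 to 217 bp in erg1. Windows held between 1 cluster (ofd1 and dsc2) and 12 clusters (hmg1), yet outside scp1 the main cluster held between 94.5% and 100% of the window's tags in every library.

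Between the strains, 2 of the 10 promoter sums rose in the double mutant (erg1 and dsc1) and 1 fell (sre1), by limma on log2(TPM + 0.5) with Benjamini-Hochberg adjustment over 5582 genes. Among all genes tested 24.3% were called higher and 9.08% lower, and among protein-coding genes 16.9% and 9.62%, so the number of calls among the 10 was near the background. Groups did not overlap for 5 of the 10 genes, against 47.9% of all genes and 42.7% of protein-coding genes. The median log2 difference over the 10 was -0.04, beside 0.13 over all genes and 0.08 over protein-coding genes. Rescaling the libraries by median-of-ratios or TMM factors moved the median of all genes from 0.13 to -0.02, so the differences relative to 0.13 are given for the called genes as well. Log2 values here and below are on the log2(TPM + 0.5) scale, which understates differences of low values.

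For sre1 (SPBC19C2.09, II:1691394-1694691, plus strand), the SREBP gene itself, the promoter sum was 32.2, 30.4 and 27.2 TPM in wild-type replicates 1 to 3 and 19.7, 23.6 and 22.3 TPM in mutant replicates 1 to 3. Every mutant library lay below every wild-type library. The means of 30.0 ± 2.54 and 21.9 ± 1.94 TPM (SD, n = 3 each) put the mutant 1.37-fold lower, a log2 difference of -0.45 (95% interval -0.76 to -0.13; limma adjusted p = 0.0363) and of -0.57 relative to the median of all genes. The main cluster alone, at II:1691394-1691402, fell from 29.3 ± 2.49 to 20.7 ± 1.82 TPM (log2 difference -0.49; limma adjusted p = 0.0178). The direction was the same without any 1 library, but the call on the sum was kept only without wild-type replicate 3 (limma adjusted p = 0.0479). Leaving out wild-type replicate 1 gave an adjusted p of 0.114, and leaving out wild-type replicate 2 gave 0.0760. The values were 0.0837, 0.0603 and 0.0942 with mutant replicates 1, 2 and 3 left out in turn. The main cluster lost its call only without wild-type replicate 1 (adjusted p = 0.0635).

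Upstream of the sre1 start lie letters of the sterol regulatory element kind, shown here because Sre1 is known to act on its own gene. The stretch is II:1691269-1691318, plus strand, with the matches in capitals.
sre1 promoter elements: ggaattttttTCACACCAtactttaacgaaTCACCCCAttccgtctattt
The matches to TCACNCCA begin at positions -115 and -95 relative to the annotated start, and the latter also matches TCACCCCA, a special case of the same letters. On both strands from 250 bp before to 50 bp after the start, TCACNCCA was found in 2 of the 10 genes (sre1 and erg25) and in 1.92% of 5112 protein-coding promoters. TCACCCCA was found in sre1 and in 0.274% of those promoters. The longer form of the element, with A before and C after the letters TCACNCCA, was found in none of the 10 and in 0.0391%. The E-box letters CANNTG were found in 5 of the 10 genes against 62.9% of all promoters, CCAAT in 5 against 42.2%, and TATAAA in 5 against 48.1%. TATAAA began at position -34 relative to the erg1 start and can be read in the sequence printed above. A match is a description of these letters, not a site.

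For sre2 (SPBC354.05C, II:551130-555295, minus strand), an SREBP paralogue that is also processed by the Dsc complex, the sums were 20.2, 13.6 and 18.7 TPM in wild type and 14.8, 20.1 and 12.8 TPM in the mutant. The groups overlapped, and the log2 difference of -0.14 (95% interval -0.64 to 0.37) did not pass the test (limma adjusted p = 0.664). The interval reaches past the fall seen for sre1, so these values do not separate the paralogues.

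For scp1 (SPBC3B9.15C, II:4011148-4014884, minus strand), the sterol-sensing escort of Sre1, the sums were 23.7, 18.8 and 21.6 TPM in wild type and 17.6, 18.2 and 14.6 TPM in the mutant. The groups did not overlap, though wild-type replicate 2 came close to mutant replicate 2. The log2 difference of -0.34 (95% interval -0.69 to 0.02) did not pass (limma adjusted p = 0.129). It passed as lower after median-of-ratios scaling (limma adjusted p = 0.0289) and TMM scaling (0.0284), and on recovered tags with edgeR's quasi-likelihood test (0.0293) and DESeq2 (0.0122).

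The clusters of the scp1 promoter behaved differently from one another. The cluster at II:4014997-4014999, position -113 relative to the annotated start, had 3.44, 3.63 and 3.44 TPM in wild type and 0.559, 0.690 and 0.856 TPM in the mutant. The wild-type values were close together and every mutant value was far below them. The means of 3.50 ± 0.109 and 0.702 ± 0.149 TPM, from 183 and 46 tags, put the mutant 4.99-fold lower (log2 difference -1.74, 95% interval -2.11 to -1.37; limma adjusted p = 3.08e-05). The main cluster had 18.0, 13.5 and 16.6 TPM in wild type and 15.3, 15.7 and 12.5 TPM in the mutant, so its groups overlapped (log2 difference -0.14, 95% interval -0.51 to 0.24; limma adjusted p = 0.534). A cluster at position -154, II:4015038-4015052, also overlapped, with means of 1.76 ± 0.300 and 1.43 ± 0.322 TPM (limma adjusted p = 0.361).

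The series asks whether start positions move, and scp1 was the 1 gene of the 10 whose tag-weighted mean start position passed the test, against 12.3% of the 3958 genes tested (4.7% downstream, as in scp1, and 7.6% upstream). Its mean start lay at -30.6, -35.9 and -28.1 bp relative to the annotated start in wild type and at -19.3, -21.3 and -19.1 bp in the mutant. The groups did not overlap, and the shift was 11.6 bp downstream (95% interval 5.52 to 17.7; limma adjusted p = 0.0467). This call was kept without wild-type replicate 2 (adjusted p = 0.0481) and lost without each of the other 5 libraries in turn (adjusted p between 0.0673 and 0.133). The main cluster's share of the scp1 tags was 76.2%, 71.5% and 77.0% in wild type and 86.8%, 86.1% and 86.2% in the mutant. The log2 ratio of main to remaining tags rose by 0.92 (95% interval 0.49 to 1.36; limma adjusted p = 0.00642), a call kept without any 1 library. In the other 9 genes the mean start moved by at most 4.51 bp (sre2), and none of these shifts passed. Of these, ofd1 and dsc2 have 1 cluster in their windows, so no shift could be seen in them. The 3958 genes likewise include genes with 1 cluster.

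**Figure D2:**
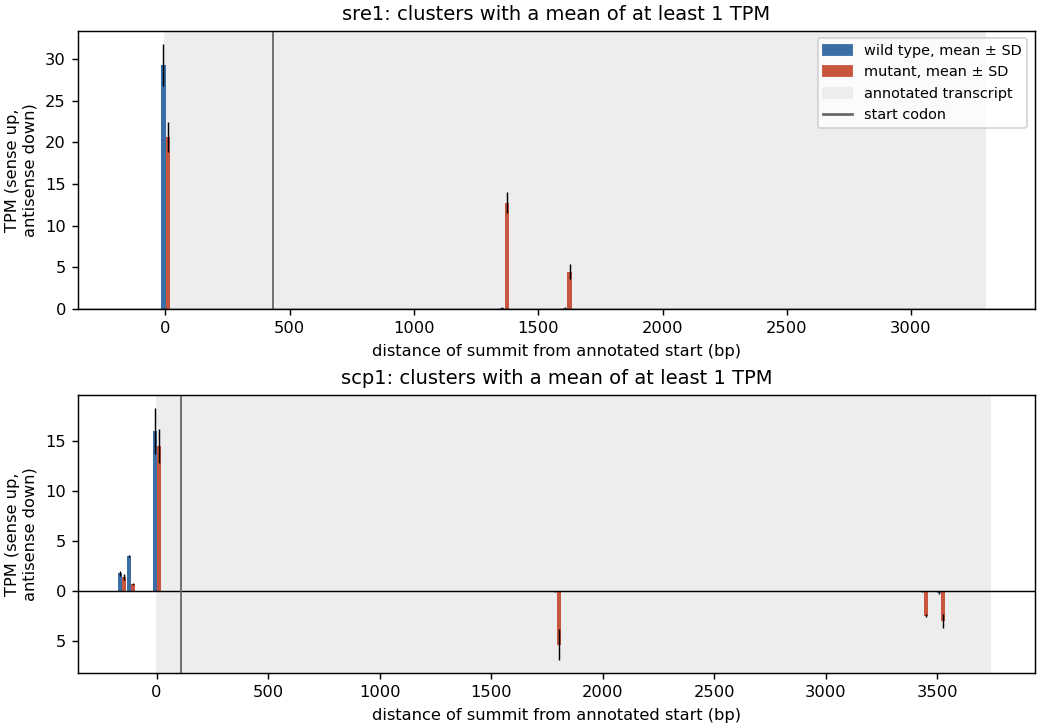
Tag clusters along sre1 and scp1 with a mean of at least 1 TPM, as the mean ± SD of each group in TPM against the distance of the summit from the annotated start in bp; bars above 0 are on the gene's strand, bars below 0 on the other strand, the grey area is the annotated transcript and the vertical line its start codon. The mutant has tall same-strand bars inside sre1, 1364 and 1617 bp downstream of the start, and opposite-strand bars inside scp1 that are near 0 in wild type.

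The main cluster's share was tested in the 8 genes with more than 1 cluster and changed in 4, higher in 3 and lower in 1, against 28.8% of 3511 genes (8% higher and 20.8% lower). In sre1 it was 97.1%, 99.0% and 97.4% in wild type and 94.8%, 94.5% and 94.8% in the mutant, where all values were lower (log2 ratio -1.05, 95% interval -1.58 to -0.52; limma adjusted p = 0.00920). The direction was thus opposite in sre1 and scp1, but the share outside the main cluster was small in sre1, at 0.315 to 1.29 TPM. In erg1 and dsc1 the log2 ratio was higher by 0.93 (limma adjusted p = 0.00610) and 0.62 (0.0454). The dsc1 call was kept without mutant replicate 2 (limma adjusted p = 0.0418) and lost without each of the other 5 libraries in turn, with adjusted p between 0.0654 (without wild-type replicate 2) and 0.129. Tags outside their main clusters came to 0.0430 to 0.253 TPM and 0.0430 to 0.259 TPM, below the 0.5 TPM added, so there the ratio follows the level of the main cluster.

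Neither oxygen regulator passed the test. For ofd1 (SPBC6B1.08C, II:2644726-2646637, minus strand), which encodes the dioxygenase that speeds degradation of nuclear Sre1, the sums were 343, 293 and 296 TPM in wild type and 256, 369 and 361 TPM in the mutant. Mutant replicate 1 was the lowest of all and the other mutant libraries were the highest, so the groups overlapped (log2 difference 0.07, 95% interval -0.31 to 0.44; limma adjusted p = 0.787). For nro1 (SPCC4B3.07, III:1162472-1164087, minus strand), the inhibitor of Ofd1, the sums were 828, 719 and 892 TPM in wild type and 942, 897 and 901 TPM in the mutant. The mutant libraries all lay above the wild-type ones, but wild-type replicate 3 came close to the nearest, and the log2 difference of 0.17 (95% interval -0.09 to 0.44) did not pass (limma adjusted p = 0.285).

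Of the sterol enzymes, erg1 rose. Erg1 is squalene epoxidase, which carries out the first oxygen-requiring step of sterol synthesis. At erg1 (SPBC713.12, II:892160-894361, plus strand) the sums were 43.4, 46.4 and 52.4 TPM in wild type and 67.8, 81.0 and 98.3 TPM in the mutant. The lowest mutant library lay well above the highest wild-type one. The means of 47.4 ± 4.56 and 82.4 ± 15.3 TPM put the mutant 1.74-fold higher, a log2 difference of 0.78 (95% interval 0.41 to 1.15; limma adjusted p = 0.00767) and of 0.65 relative to the median of all genes. The call was kept without any 1 library, with adjusted p between 0.00449 and 0.0335, and under both rescalings.

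The other enzymes did not pass. For hmg1 (SPCC162.09C, III:1561215-1565491, plus strand), HMG-CoA reductase of the mevalonate pathway, the sums were 93.9, 69.6 and 94.4 TPM in wild type and 86.4, 69.3 and 69.2 TPM in the mutant. The groups overlapped through wild-type replicate 2 and mutant replicate 1 (log2 difference -0.19, 95% interval -0.57 to 0.19; limma adjusted p = 0.411). For erg25 (SPAC630.08C, I:359638-361317, minus strand), an oxygen-requiring sterol methyl oxidase, the sums were 308, 439 and 412 TPM in wild type and 342, 294 and 398 TPM in the mutant. The groups overlapped again (log2 difference -0.16, 95% interval -0.56 to 0.24; limma adjusted p = 0.523). The intervals of hmg1 and erg25 lie below the erg1 estimate of 0.78.

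Of the processing machinery, dsc1 rose. Dsc1 is the ubiquitin ligase subunit of the Dsc complex in the Golgi. At dsc1 (SPBC947.10, II:652950-655246, minus strand) the sums were 49.3, 43.6 and 44.6 TPM in wild type and 69.1, 68.8 and 62.7 TPM in the mutant, with no overlap. The means of 45.8 ± 3.03 and 66.9 ± 3.62 TPM put the mutant 1.46-fold higher, a log2 difference of 0.54 (95% interval 0.28 to 0.81; limma adjusted p = 0.00860) and of 0.41 relative to the median of all genes. The call was kept without any 1 library (adjusted p between 0.0176 and 0.0399) and under both rescalings. For dsc2 (SPAC1486.02C, I:3186322-3188087, minus strand), the rhomboid-family subunit of the same complex, the sums were 16.1, 14.9 and 14.9 TPM in wild type and 14.2, 20 and 19.5 TPM in the mutant. Mutant replicate 1 was the lowest library of all, and the log2 difference of 0.20 (95% interval -0.18 to 0.59) did not pass (limma adjusted p = 0.388). At the level of single clusters, 13 promoter clusters of the 10 genes were tested; the main clusters of erg1 and dsc1 were higher, and the sre1 main cluster and the scp1 upstream cluster were lower. Among all promoter clusters 21.8% were higher and 13% lower.

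The largest log2 differences were found inside the genes, away from their promoters. Outside the promoter windows, 17 clusters within the 10 genes reached a mean of 1 TPM over the 6 libraries and were tested; 11 were higher in the mutant and none lower. By limma at an unadjusted p under 0.05, also none was lower. On the gene's own strand 7 of 13 rose, against 48.4% of all intragenic clusters (3.08% were lower), and on the opposite strand 4 of 4 rose, against 75.2% of all antisense clusters (3.55% were lower). The members' counts were thus near the background of the whole genome. Because such clusters pass the 1 TPM filter mainly through the mutant, the count is a description only. All 11 kept their call without any 1 library, but in those fits the filter stayed the one set on all 6 libraries. The kept calls are thus a description too. The adjusted p-values and the rank given below are for clusters filtered in this way.

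**Figure D3:**
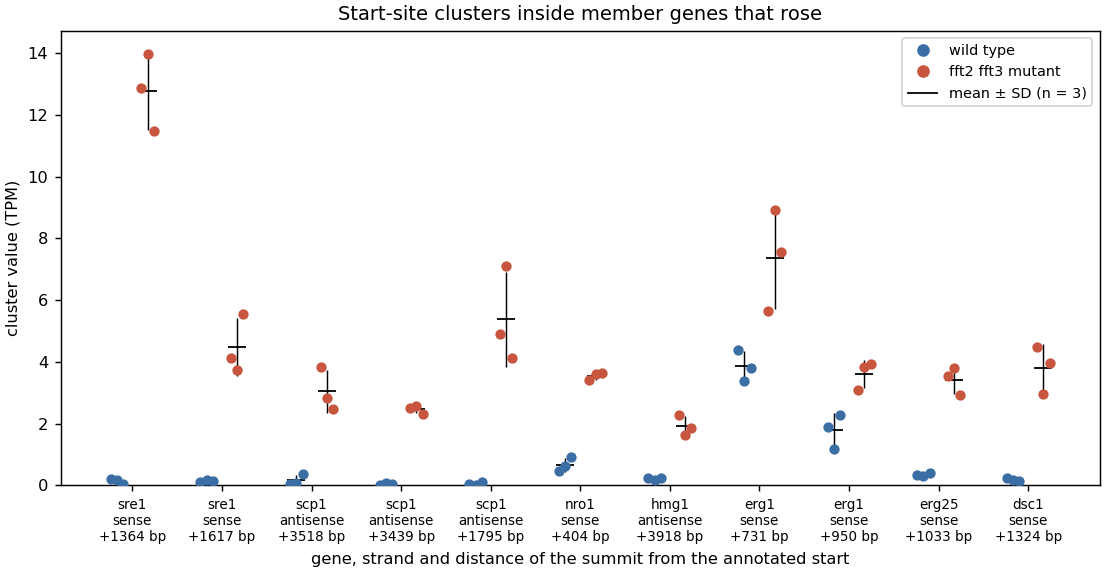
The 11 clusters inside the genes that were higher in the double mutant, in TPM, 1 point per library with the mean ± SD of each group (n = 3); the labels give the strand and the distance of the summit from the annotated start. All 3 mutant libraries lie above all 3 wild-type libraries in every cluster, and the highest mutant values, 11.5 to 14.0 TPM, are at the first inside start of sre1.

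The largest log2 difference among them was in sre1. The cluster at II:1692758-1692797, 1364 bp downstream of the annotated start and inside the coding region, had 0.199, 0.158 and 0.0506 TPM in wild type and 12.9, 14.0 and 11.5 TPM in the mutant. Wild-type libraries held 7 tags in all and mutant libraries 851. The means of 0.136 ± 0.0767 and 12.8 ± 1.25 TPM put the mutant 94.0-fold higher (log2 difference 4.39, 95% interval 4.0 to 4.78; limma adjusted p = 8.49e-07), rank 16 by log2 difference among 2921 intragenic clusters. The cluster at II:1692969-1693060, 1617 bp downstream, had 0.0996, 0.158 and 0.152 TPM in wild type and 4.13, 3.75 and 5.54 TPM in the mutant. It was 32.8-fold higher (7 against 293 tags; log2 difference 2.95; limma adjusted p = 3.29e-06). Both start at a pyrimidine-purine step, TG and TA in the sequences printed above.

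The inside starts changed the make-up of sre1 5′ ends. Intragenic clusters held 4.85%, 6.54% and 5.61% of the gene's same-strand tags in wild type and 49.6%, 46.9% and 48.5% in the mutant. In the mutant, then, nearly as many capped ends began inside the gene as at its promoter: the 22 intragenic clusters summed to 20.4 ± 0.841 TPM beside 21.9 TPM at the promoter, against 1.80 ± 0.288 TPM in wild type. The increase, from 5.67% to 48.3%, ranked 86 among 4680 protein-coding genes, whose medians were 1.85% in wild type and 3.73% in the mutant.

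Where the inside starts fall in the reading frame can be read from the genome. The sre1 coding region is 2703 bases in 1 exon. The first inside start begins at coding base 930, and the first ATG downstream of it is 142 bases further on, in frame, at codon 358 of 900. The second inside start begins at coding base 1183, and its first ATG follows after 21 bases, also in frame, at codon 402. These are positions of letters, and no protein was measured. In nro1, erg1 and erg25, by contrast, the first ATG downstream of each rising inside start was out of frame.

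Rising same-strand clusters of the other genes had smaller log2 differences than those of sre1. In dsc1 the cluster at II:653910-653970, 1324 bp downstream of the start codon, had 0.249, 0.158 and 0.152 TPM in wild type and 4.47, 2.97 and 3.98 TPM in the mutant (20.5-fold; 10 against 252 tags; limma adjusted p = 5.98e-06). In erg25 the cluster at I:360268-360326, 1033 bp downstream of the annotated start, had 0.349, 0.315 and 0.405 TPM in wild type and 3.53, 3.79 and 2.92 TPM in the mutant (9.58-fold; limma adjusted p = 7.94e-06). In nro1 the cluster at III:1163650-1163728, 404 bp downstream, had 0.448, 0.631 and 0.911 TPM in wild type and 3.40, 3.62 and 3.63 TPM in the mutant (5.35-fold; limma adjusted p = 5.53e-05). In none of these did the groups overlap, and each was a small part of its gene: intragenic tags made up 0.631% of same-strand tags of nro1 in the mutant, 3.33% of erg25 and 11.7% of dsc1.

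In erg1 the promoter and clusters inside the gene both rose. The cluster at II:892761-892899, 731 bp downstream of the annotated start, went from 3.86 ± 0.50 to 7.37 ± 1.65 TPM (1.91-fold; limma adjusted p = 0.00791). The one at II:893068-893206, 950 bp downstream, went from 1.78 ± 0.555 to 3.62 ± 0.455 TPM (2.03-fold, limma adjusted p = 0.0102). Those at II:892969-893003 (1.61-fold, limma adjusted p = 0.137) and II:893248-893251 (2.22-fold, limma adjusted p = 0.0867) missed the threshold, and their groups overlapped. The promoter sum was 1.74-fold higher, and the intragenic share of erg1 tags overlapped between groups, at 16.3% ± 1.25 and 18.0% ± 2.29. The rising erg1 clusters start at GG, not at a pyrimidine-purine step, unlike the rising clusters of the other genes. Over the 10 genes 9 of 11 rising inside clusters and 1 of 6 others had such a step; over all protein-coding genes it was 83.7% of 2560 rising and 33.0% of 1884 other inside clusters. These counts mix the strands. On the gene's own strand it was 5 of 7 rising and 1 of 6 others, beside 73.7% and 22.2% over all protein-coding genes. All 4 antisense clusters rose and had the step, beside 96.1% of rising and 76.1% of other antisense clusters.

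In the mutant, antisense starts were most abundant in scp1. Opposite-strand clusters within the gene summed to 0.399, 0.315 and 0.759 TPM in wild type and 13.1, 15.1 and 10.8 TPM in the mutant, close to the mutant's 16.8 TPM at the scp1 promoter. The cluster at II:4013044-4013093, 1795 bp from the scp1 start, had 3 tags in all wild-type libraries and 361 in the mutant ones, or 4.90, 7.11 and 4.13 TPM (log2 difference 3.39, 95% interval 2.90 to 3.88; limma adjusted p = 3.58e-06). It lies in the promoter window of the annotated non-coding RNA gene SPNCRNA.6394. Toward the scp1 3′ end, the cluster at II:4011324-4011369, 218 bp from the annotated end, went from 0.161 ± 0.168 to 3.05 ± 0.703 TPM (18.9-fold; limma adjusted p = 3.18e-05). The one at II:4011433-4011445, 297 bp from the end, had 2 tags in wild type and 164 in the mutant (log2 difference 2.45; limma adjusted p = 3.27e-06). No mutant library overlapped a wild-type library at any of these starts.

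In the mutant, antisense tags were fewer in the other genes, while in wild type hmg1 had the highest antisense mean, 0.880 ± 0.242 TPM beside 0.491 ± 0.236 TPM in scp1. In hmg1 a cluster at III:1565133, 358 bp from the annotated end, had 0.249, 0.158 and 0.253 TPM in wild type and 2.28, 1.64 and 1.86 TPM in the mutant (8.76-fold; limma adjusted p = 3.52e-05). The summed antisense tags of sre1 were 0.0166 ± 0.0288 TPM in wild type and 3.27 ± 1.22 TPM in the mutant, and those of sre2 0.267 ± 0.304 and 1.44 ± 0.202 TPM. In ofd1, nro1, erg1, dsc1 and dsc2 the mutant means were under 1 TPM. The mutant libraries did not overlap the wild-type ones there, but these sums rest on few tags. In nro1 the highest wild-type library had 0.158 TPM and the lowest mutant library 0.172 TPM. In erg25 the antisense sums overlapped (0.446 ± 0.267 and 0.570 ± 0.214 TPM). How often such sums overlap over all genes was not computed, so the separation is a description only.

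Other genes of the pathway were taken from a list of 32 covering the mevalonate steps, the steps from squalene to ergosterol, SREBP control, and the low-oxygen lipid regulator Mga2 with fatty acid genes. Of these, 10 rose and none fell by limma, against 24.3% and 9.08% of all genes and 16.9% and 9.62% of protein-coding genes. The median log2 difference was 0.11, beside 0.13 over all genes and 0.08 over protein-coding genes. With the libraries rescaled, by median-of-ratios or by TMM, 2 rose (ins1 and erg26) and 3 fell (cut6, fas1 and idi1). Counts without each library in turn were 5, 5 and 7 higher without wild-type replicates 1, 2 and 3 and 8, 2 and 2 higher without mutant replicates 1, 2 and 3.

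Among genes listed under SREBP control outside the 10, ins1, which encodes the Insig homologue, rose from 87.5 ± 3.50 to 131 ± 6.99 TPM (log2 difference 0.58, 0.45 relative to the median of all genes; limma adjusted p = 0.00421). The Dsc subunit gene dsc5 went from 46.4 ± 3.84 to 66.2 ± 8.51 TPM (limma adjusted p = 0.0240), and cdc48, whose ATPase works with the Dsc complex, from 209.9 ± 52.2 to 340 ± 76.2 TPM (0.0394). That made 3 of the 6 genes so listed higher, beside 24.3% of all genes and 16.9% of protein-coding genes, with dsc3, dsc4 and rbd2 not passing. Under both rescalings dsc5 and cdc48 lost their calls. Without single libraries, dsc5 lost its call without wild-type replicate 3 (adjusted p = 0.0780) and mutant replicates 2 (0.0887) and 3 (0.0511), and cdc48 kept its call only without wild-type replicate 3 (0.0204). The ins1 call was kept in all of these alternatives.

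Of 13 other genes between squalene and ergosterol, 6 rose, beside the same 24.3% of all genes and 16.9% of protein-coding genes. Under either rescaling 1 of the 13 was higher, and with edgeR 0 were (4 at an unadjusted p under 0.05), beside 3 with DESeq2. The lanosterol demethylase gene erg11 went from 547 ± 94.2 to 788 ± 26.0 TPM (limma adjusted p = 0.0232) and erg26, a sterol dehydrogenase gene, from 322 ± 23.8 to 451 ± 14.3 TPM (0.00909). The lanosterol synthase gene erg7 went from 62.6 ± 4.79 to 84.1 ± 1.15 TPM (limma adjusted p = 0.0204), and erg2, a sterol isomerase gene, from 82.3 ± 6.70 TPM with a log2 difference of 0.42 (0.0238). The log2 difference was 0.66 in erg32 (limma adjusted p = 0.0312), a sterol desaturase gene, and 0.42 in sts1 (0.0443), a sterol reductase gene. Of these, erg26 alone kept its call without any 1 library; without mutant replicate 2 or mutant replicate 3 none of the other 5 passed (adjusted p between 0.0592 and 0.139). Of 8 other mevalonate genes 1 rose, the farnesyl pyrophosphate synthase gene fps1, from 157 ± 14.0 to 233 ± 38.8 TPM (limma adjusted p = 0.0243); this call was kept only without wild-type replicate 3 (0.0375) or mutant replicate 1 (0.00638). None of the 5 genes of the Mga2 and fatty acid list passed, and their median log2 difference was -0.31.

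**Figure D4:**
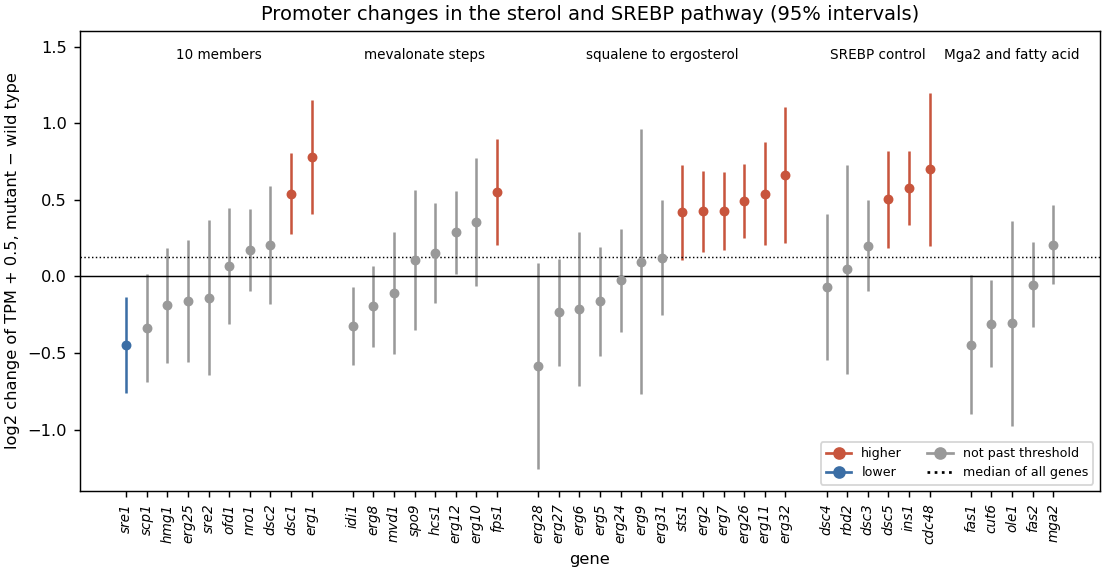
Log2 difference of the promoter sum (mutant minus wild type, on the log2(TPM + 0.5) scale) with its 95% interval for the 10 genes and the 32 other pathway genes, grouped by step; coloured points passed the adjusted p threshold (red higher, blue lower), grey points did not, and the dotted line marks the median of all genes, 0.13. The erg1, dsc1 and ins1 intervals are among those above that line, and the sre1 interval is among those below it. The Mga2 and fatty acid genes have a median of -0.31.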

How the data were processed

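Per the labels' protocols, CAGE libraries were made from total RNA. The submitters' processing notes name CASAVA 1.6, Bowtie 0.12.7, bedtools 2.15.0 and build ASM294v2, without their roles. The values are RPM, which the authors scaled per library and named TPM (tags in each 1000000), for the same 108138 clusters in all 6 libraries. A pooled signal (score) per cluster was also deposited by the authors and was not used. Between 99.7% and 99.8% of values above 0 were whole multiples of 1 tag (tolerance 0.02 tags), so tags could be recovered for the count tests. At 5 TPM, counting error alone was 9.28% to 12.6% per library. The sources used here name no molecular identifiers, so counting error is a minimum.

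Clusters were assigned by strand and summit with the ASM294v3 annotation, a cluster in several windows going to the nearest start. With each chromosome cut into 4 equal stretches, 96.3% to 100% of promoter clusters had a pyrimidine-purine step ending 1 bp upstream of the summit. Over all genome positions it was 23.1%, so the coordinates were used as they stand, with the initiating base at that place. An intragenic cluster lies inside a gene on its strand, and an antisense cluster on the other, both outside that gene's promoter window. Shifts inside a cluster cannot be seen.

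Tests used limma 3.58.1 in R 4.3.3 on log2(TPM + 0.5), with a mean of at least 1 TPM, a threshold of 0.05 and Benjamini-Hochberg adjustment over all 5582 genes or 11250 clusters; positions and shares needed 5 TPM in every library. Tests were two-sided and were checked on simulated data. Alternatives were edgeR 4.0.16 and DESeq2 1.42.0 on recovered tags, median-of-ratios and TMM scaling, other pseudocounts, filters and windows, the replicate number as a block, and each library left out.

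The members and lists were chosen with earlier results of these data known. All 10 genes are named, as are other pathway genes past the threshold and up to 3 called clusters per gene. That cut6, fas1 and idi1 are named was decided after their values were seen.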

Additional observations from a re-analysis of the deposited data

How the results depend on the processing

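Calls of erg1 and dsc1 as higher (2 genes) were made under every alternative run. The number of lower genes among the 10 was 2 with median-of-ratios scaling, TMM scaling, edgeR and DESeq2, where scp1 joined sre1, 0 with a replicate block (limma adjusted p = 0.121 for sre1), and 0 to 1 with single libraries left out. Among the 32 other pathway genes, 2 were higher and 3 lower with either scaling, 1 and 3 with edgeR, 6 and 5 with DESeq2, 3 higher with the replicate block, and 2 to 8 higher and 0 to 1 lower with single libraries left out. Over all genes, 1355 higher and 507 lower became 1040 and 829 after scaling by median-of-ratios factors, 1038 and 854 after TMM, 1017 and 829 with edgeR, 1074 and 944 with DESeq2, and 962 and 283 with the block.

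Lower promoter clusters numbered 1 with a mean of at least 5 TPM, a filter that leaves out the scp1 upstream cluster, 1 with the block, and 1 to 2 with single libraries left out. Higher inside clusters numbered 2 of 4 tested with that filter and 11 to 13 with single libraries left out. The scp1 position call became 0 with the block (limma adjusted p = 0.127), 0 to 1 with single libraries left out, and was lost with a window from 1000 bp upstream (0.0804), where erg25 passed instead (shift of 4.36 bp downstream; limma adjusted p = 0.0170). The dsc1 share call was lost with a pseudocount of 0.1 TPM (0.169), with the block (0.105) and without 5 of the 6 libraries in turn.

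The direction reversed for ofd1 and sre2, neither of them called in any fit. For ofd1 the log2 difference was -0.082 (median-of-ratios), -0.087 (TMM), -0.075 (edgeR) and -0.070 (DESeq2), and ranged from -0.027 to 0.24 with single libraries left out; for sre2 that range was -0.32 to 0.0022. For the reversals and lost calls the cause was not tested, beyond the filters' own construction. Pairing by the replicate numbers was not seen: deviations of same-numbered libraries from their group means correlated at -0.21, -0.21 and -0.34. Such deviations cancel within a group, so some of the correlations between groups had to be negative. These values therefore cannot decide whether the samples were paired. No library correlated best with its own number. The highest correlations were 0.43 (wild-type replicate 1 with mutant replicate 2), 0.41 (wild-type 3 with mutant 1) and 0.39 (wild-type 2 with mutant 3). A pairing under other numbers was not tested, and the block on the replicate number does not cover it. Of 565 single results recomputed, 463 kept their direction and side of the threshold. With 3 libraries per group, the 2 to 12 wild-type tags of 7 of the rising inside clusters limit the precision of their ratios.

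An alternative chosen after seeing the data, fitting positions only in genes with at least 2 clusters, kept the scp1 call (limma adjusted p = 0.0372).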
